A study of Homo sapiens with 8 samples.

Results

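The NF-kB subunit genes and the genes of its feedback inhibitors were followed in H9-derived 2D human intestinal epithelial cells (hIECs). The set was put together by gene name and role, with earlier results of these data known. It held 10 of the 60558 genes of the deposited tables: NFKB1, NFKB2, RELA, RELB and REL for the subunits, NFKBIA, NFKBIB and NFKBIE for the inhibitors that bind the subunits, and TNFAIP3 and BIRC3 for regulators that act upstream on the receptor complex. Over the 8 libraries, 9 of the 10 reached the minimum of 1 FPKM (fragments scaled to gene length and library size) in at least 2 libraries, and REL did not. H9 is an established human embryonic stem cell line, and the hIECs were grown from it as a flat layer. Normal hIECs received neither cytokines nor particulate matter. Inflamed hIECs received IFNγ at 50 ng/ml and TNFα at 50 ng/ml for 10 days. Normal hIECs with PM10 received coarse particulate matter at 100 μg/ml for the last 7 days, and inflamed hIECs with PM10 received the cytokines and the particles together. The libraries of all 4 groups thus came from 1 stem cell line, with 2 libraries in each group. The labels do not say that the 2 libraries came from separate cultures, so the spread behind every p-value may be technical.

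NF-kB is a family of dimeric transcription factors that inhibitors of the IkB family hold in the cytoplasm of resting cells. TNFα binding to its receptor switches on the IkB kinases, the inhibitors are destroyed, and the dimers enter the nucleus and bind kappa B sites. Several genes that NF-kB switches on encode its own subunits and brakes, so that the signal limits itself, and in the intestinal epithelium this pathway is known for its part in the response to microbes and to inflammatory cytokines.

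The starts of the genes were examined for kappa B matches, because most tested members rose under the cytokines. Of the 10 genes, 8 had entries in the RefSeq promoter table of GRCh38.p14, with 13 windows that run from 250 bases before to 50 bases after an annotated start. A match to the 10-letter kappa B consensus, searched on both strands with overlapping matches kept, was present in 8 of the 13 windows, those of 7 genes, and in neither window of RELA. Among all 35116 windows of the table, 5.91% held one. The next lines show the stretches before the first exon of the 3 genes whose levels covered the widest range, with the matches in capitals.
NFKBIA (chr14:35404750-35404999, minus strand): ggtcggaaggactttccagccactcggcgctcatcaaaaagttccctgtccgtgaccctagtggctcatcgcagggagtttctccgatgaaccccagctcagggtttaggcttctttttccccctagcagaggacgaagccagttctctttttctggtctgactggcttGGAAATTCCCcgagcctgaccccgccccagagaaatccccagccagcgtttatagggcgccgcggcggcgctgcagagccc
TNFAIP3 (chr6:137867009-137867213, plus strand): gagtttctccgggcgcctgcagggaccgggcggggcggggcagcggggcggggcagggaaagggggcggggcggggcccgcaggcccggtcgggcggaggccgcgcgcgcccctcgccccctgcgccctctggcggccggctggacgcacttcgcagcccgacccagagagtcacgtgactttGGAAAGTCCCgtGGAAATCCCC
BIRC3 (chr11:102317234-102317483, plus strand): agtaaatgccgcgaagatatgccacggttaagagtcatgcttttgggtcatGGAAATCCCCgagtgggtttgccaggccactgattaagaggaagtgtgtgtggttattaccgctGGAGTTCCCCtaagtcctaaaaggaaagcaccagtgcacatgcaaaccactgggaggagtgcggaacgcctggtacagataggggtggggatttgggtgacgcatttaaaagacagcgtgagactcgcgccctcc
In NFKBIA the match began at position -81 from the start. In TNFAIP3 the matches began at -67 and -55, and the second one ended at the last base before the first exon annotated in GENCODE. In BIRC3 they began at -199 and -135. The lines below give 30 bases around each match of the remaining genes, again with the match in capitals.
NFKB1 (chr4:102501300-102501329, plus strand): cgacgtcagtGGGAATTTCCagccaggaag
NFKB2 (chr10:102394461-102394490, plus strand): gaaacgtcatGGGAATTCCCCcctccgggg
NFKB2 (chr10:102394490-102394519, plus strand): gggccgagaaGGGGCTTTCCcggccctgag
NFKB2 (chr10:102395519-102395548, plus strand): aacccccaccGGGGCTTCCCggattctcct
NFKB2 (chr10:102395674-102395703, plus strand): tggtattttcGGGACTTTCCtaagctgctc
REL (chr2:60881517-60881546, plus strand): cgtcagccgcGGGAAATTCCCctcccgcca
NFKBIB (chr19:38899931-38899960, plus strand): gggcgtggtgGGGAATTTCCCgcagggcgg
Runs of more than 10 capitals are overlapping matches. NFKB2 had matches in 2 of its 3 windows. The interferon-γ activation sequence TTCNNNGAA, searched on both strands, stood in 7.66% of all windows and, among the members, in 1 of the 2 windows of RELA. A match describes the letters only. The genes with no stretch shown lie, in GENCODE 44 on GRCh38, at chr11:65653599-65663090 on the minus strand (RELA), at chr19:45001461-45038192 on the plus strand (RELB) and at chr6:44258166-44265788 on the minus strand (NFKBIE).

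The 8 libraries held 16547 to 18926 genes above 0, and the lowest value above 0 was 0.164 to 0.228 FPKM. FPKM carries no read count, so the depth behind a value is unknown. Mitochondrial genes took 17.02 and 24.2% of the summed FPKM in normal replicates 1 and 2. They took 20.2 to 20.4% in normal hIECs with PM10 and 15.5 to 16.9% in the 4 cytokine-treated libraries. The 2 normal libraries thus differed from each other more than those of any other group. Normal replicate 1 held the most genes above 0 and the lowest value above 0. Which of the 2 stood apart was not tested. After scaling to a common sum without mitochondrial genes, 8 of 9 members still rose under the cytokines. Most markers of the labelled cell type were absent or very low, so hIECs is used here as the study's name for the cells. Whether the RNA came from epithelial cells was not shown. Of 12 intestinal epithelial markers, CDX2, VIL1, MUC2, LYZ and CHGA were at 0 in every library and 7 were under 1 FPKM in all libraries, EPCAM and CDH1 among them. Mesenchymal markers (11 genes) summed to 4424 to 5864 FPKM per library. The summed epithelial markers were 614 to 667 FPKM in the 4 libraries without cytokines and 299 to 361 FPKM in the 4 with them. That sum is mostly KRT8 and KRT18. Of the 5 tested genes of the list KRT8, KRT18 and SOX9 were lower with cytokines, LGR5 was higher (difference 0.97 without PM10) and KRT19 did not pass. The 8 neuronal markers summed to 354 to 409 FPKM without and 199 to 203 FPKM with cytokines. Of 9 immune cell markers 6 were at 0 in every library, and the list summed to at most 3.87 FPKM. The part of these shifts in the results below was not tested. In bulk RNA fewer cells of a type and less RNA per cell cannot be told apart.

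Cytokines raised every tested subunit gene except RELA. NFKB1 encodes the precursor of the small DNA-binding partner of the classical dimer. Its level was 5.56 and 5.36 FPKM in normal hIECs, 6.76 and 7.41 with PM10, 22.0 and 22.3 in inflamed hIECs, and 22.1 and 22.2 in inflamed hIECs with PM10. All 4 cytokine-treated libraries lay above all 4 others. The mean rose 4.05-fold without PM10 and 3.13-fold with it. On the log2(FPKM + 1) scale, on which all differences below are given, the first rise was 1.84 (SE 0.059, limma adjusted p = 4.64e-07) and the second was 1.52 (SE 0.059, limma adjusted p = 8.01e-07).

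NFKB2 encodes the precursor that acts as an inhibitor until it is cut into the small subunit of the alternative pathway. It measured 11.5 and 11.01 FPKM in normal hIECs, 11.4 and 11.7 with PM10, 29.8 and 29.7 in inflamed hIECs, and 34.1 and 33.0 in inflamed hIECs with PM10. The groups with and without cytokines did not overlap. The rise was 1.32 without PM10 (SE 0.051, limma adjusted p = 1.04e-06) and 1.46 with PM10 (limma adjusted p = 4.8e-07). RELB encodes the transactivating partner in the alternative pathway. It stood at 5.52 and 5.72 FPKM in normal hIECs, 6.51 and 6.87 with PM10, 19.5 and 21.0 in inflamed hIECs, and 20.6 and 20.1 in inflamed hIECs with PM10. RELB thus moved like NFKB1 and NFKB2, with separate groups and rises of 1.68 (SE 0.060, limma adjusted p = 7.38e-07) and 1.47 (limma adjusted p = 1.03e-06).

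RELA encodes the transactivating subunit of the classical dimer. It was the most abundant subunit gene in normal hIECs, with 24.8 and 24.4 FPKM, and measured 28.8 and 27.2 with PM10, 25.6 and 23.8 in inflamed hIECs, and 25.7 and 27.3 in inflamed hIECs with PM10. The cytokine groups overlapped the others. The difference for cytokines was 0.0053 without PM10 (95% interval -0.14 to 0.15, limma adjusted p = 0.947) and -0.076 with PM10 (95% interval -0.22 to 0.064, limma adjusted p = 0.295). Both intervals ended below the smallest rise of the other tested subunit genes, which was 1.32. Without information on strand, reads from the stretch that RELA shares with the divergent transcript RELA-DT cannot be told apart. RELA-DT itself was listed at 0.626 and 0.279 FPKM in normal hIECs and 0.772 and 0.302 with PM10. In inflamed hIECs it was listed at 0.861 and 0.466 FPKM, and at 0 in both libraries with PM10.

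REL, which encodes a subunit best known from lymphoid cells, stayed under 1 FPKM in every library. It was listed at 0.403 and 0.373 FPKM in normal hIECs, 0.467 and 0.210 with PM10, 0.572 and 0.516 in inflamed hIECs, and 0.531 and 0.497 in inflamed hIECs with PM10. In a fit of all genes above 0 the difference for cytokines was 0.15 without PM10 (95% interval -0.10 to 0.41, limma adjusted p = 0.305) and 0.18 with it (limma adjusted p = 0.211). The 4 cytokine-treated libraries lay above the 4 others by a gap from 0.467 to 0.497 FPKM. These levels lie close to the lowest value above 0 of a library, and the intervals hold both no change and a rise.

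**Figure D1:**
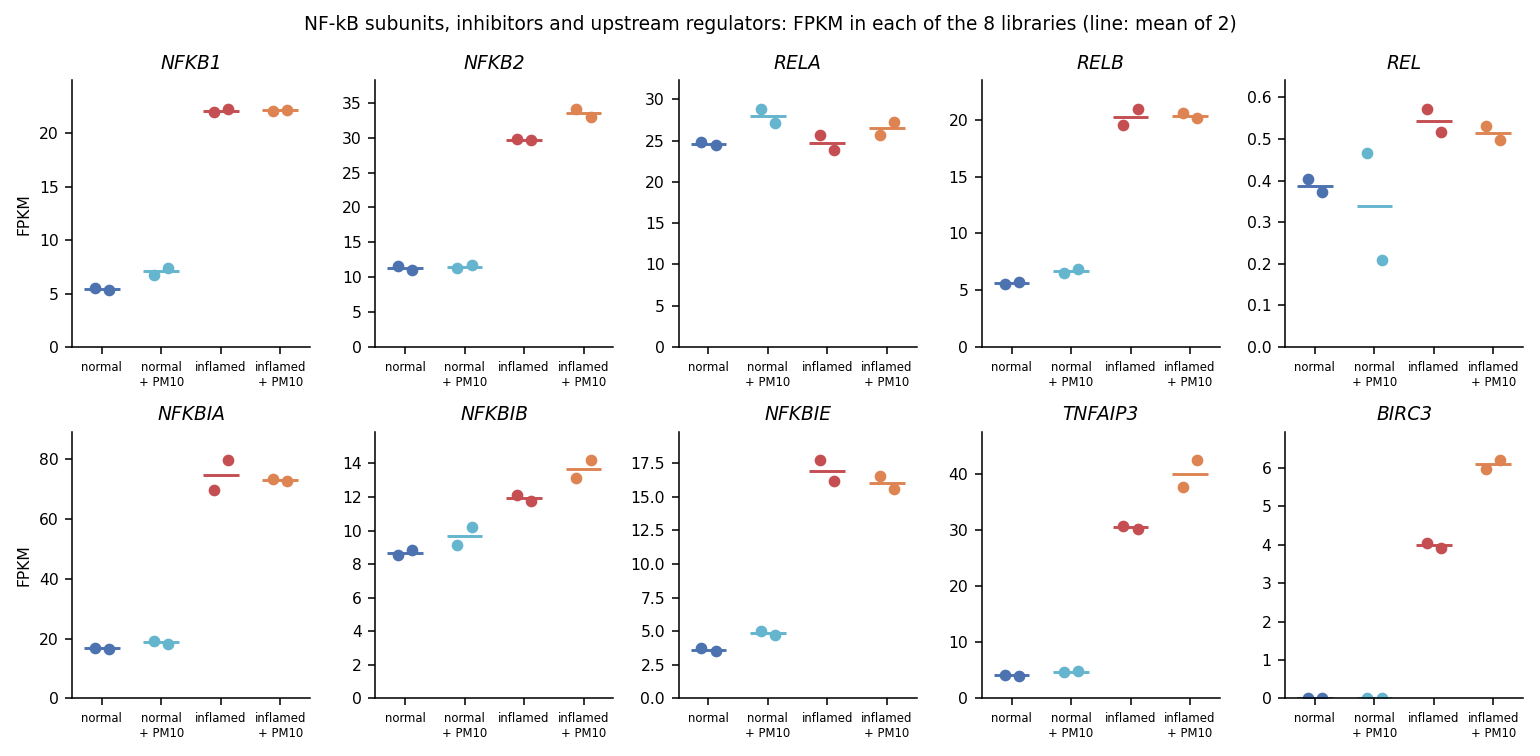
FPKM (vertical axes, linear from 0) of the 10 genes in the 8 libraries, by group (normal, normal with PM10, inflamed, inflamed with PM10). Points are libraries and lines are means of 2. In 9 panels the 4 cytokine-treated libraries lie above the other 4, by a narrow gap for NFKBIB and REL, while those of RELA overlap.

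The make-up of the subunit transcripts shifted with these rises. FPKM is scaled to gene length, so the genes can be set side by side. The 5 subunit genes summed to 46.9 to 53.9 FPKM in the 4 libraries without cytokines and to 97.2 to 103.1 FPKM in the 4 with cytokines. RELA made up 50.9 to 53.5% of that sum without cytokines and 24.5 to 26.5% with them. The share of NFKB1 went from 11.4 to 13.9% up to 21.5 to 22.9%, that of NFKB2 from 21.1 to 24.1% up to 30.5 to 33.1%, and that of RELB from 11.5 to 12.9% up to 19.5 to 21.6%. In inflamed hIECs NFKB2 was thus the most abundant subunit gene, RELA came next, and NFKB1 and RELB were near each other. RELB transcripts amounted to 0.222 to 0.253 of those of RELA without cytokines and to 0.738 to 0.880 with them. These ranges are descriptions of transcript levels. Protein and nuclear entry were not analysed here.

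The inhibitors that bind the subunits also rose under cytokines, by unequal amounts. NFKBIA encodes IkB alpha, the inhibitor that is destroyed first and rebuilt fastest after a signal. Its level was 16.99 and 16.6 FPKM in normal hIECs, 19.2 and 18.3 with PM10, 69.9 and 79.7 in inflamed hIECs, and 73.6 and 72.6 in inflamed hIECs with PM10. Cytokine-treated libraries stood apart from the rest, with a 4.46-fold rise of the mean without PM10 and a 3.89-fold rise with it. The differences were 2.09 (SE 0.067, limma adjusted p = 4.65e-07) and 1.91 (limma adjusted p = 5.02e-07).

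NFKBIE encodes IkB epsilon, a slower feedback inhibitor. It measured 3.72 and 3.55 FPKM in normal hIECs, 4.98 and 4.71 with PM10, 17.7 and 16.1 in inflamed hIECs, and 16.5 and 15.6 in inflamed hIECs with PM10. It rose 4.66-fold without PM10 and 3.31-fold with it, with differences of 1.95 (SE 0.069, limma adjusted p = 6.88e-07) and 1.54 (limma adjusted p = 1.67e-06). NFKBIB encodes IkB beta, an inhibitor that is not known for strong induction by NF-kB. It measured 8.52 and 8.83 FPKM in normal hIECs, 9.12 and 10.2 with PM10, 12.1 and 11.8 in inflamed hIECs, and 13.1 and 14.2 in inflamed hIECs with PM10. The rise of NFKBIB, 0.42 without PM10 (SE 0.071, limma adjusted p = 0.00173) and 0.46 with it (limma adjusted p = 0.000869), was the smallest of the 8 that passed the test. NFKBIB holds a kappa B match like NFKBIA, shown above. SIRT2 overlaps NFKBIB on the other strand, and reads from the stretch they share cannot be assigned to 1 of the 2 genes in these libraries. SIRT2 itself measured 30.3 and 32.5 FPKM in normal hIECs and 24.7 and 22.4 FPKM in inflamed hIECs.

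The summed level of the 3 inhibitors rose by a larger factor than that of the subunits. Their FPKM summed to 28.9 to 33.3 without cytokines and to 99.7 to 107.6 with them. The ratio of this sum to that of the 5 subunit genes was 0.611 to 0.624 in the 4 libraries without cytokines and 0.993 to 1.11 in the 4 with cytokines. NFKBIA alone took 55.1 to 58.1% of the inhibitor sum before and 70.1 to 74.1% after. Within the cytokine-treated libraries the ratio was 1.02 and 1.11 without PM10 and 1.00 and 0.993 with PM10, and within the others all 4 values lay within the narrow range given above.

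**Figure D2:**
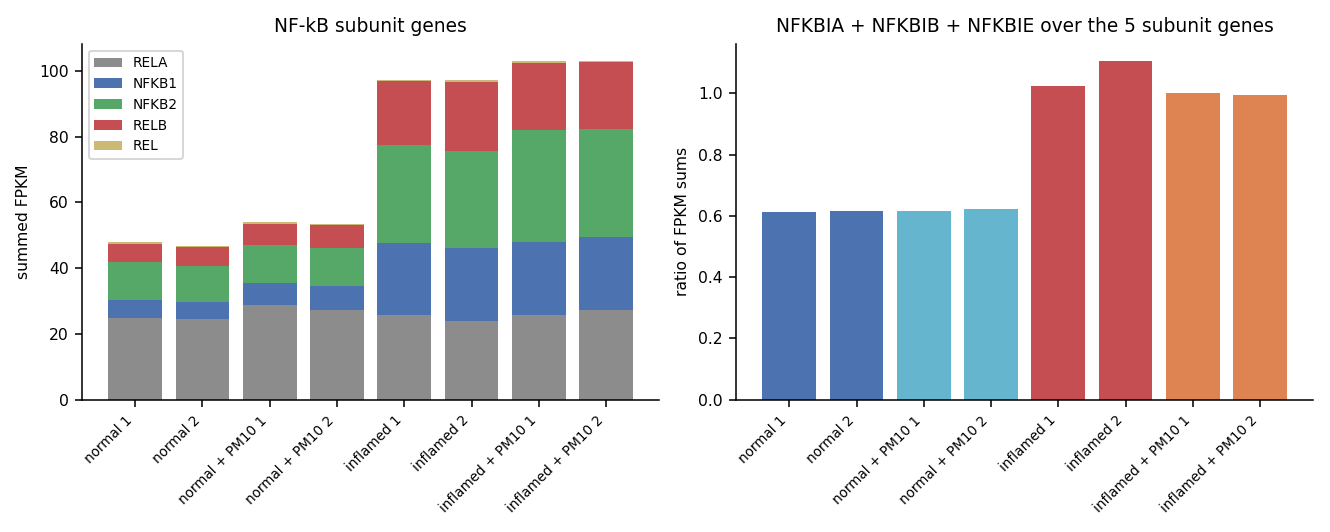
Left, summed FPKM of the 5 subunit genes in each library, stacked by gene (vertical axis from 0). Right, the summed FPKM of NFKBIA, NFKBIB and NFKBIE over that of the subunit genes. The RELA block keeps its height while the other blocks grow, and the ratio is 0.611 to 0.624 without cytokines and 0.993 to 1.11 with them.

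Of the members above 0 in every group, the upstream brake TNFAIP3 had the largest difference. It encodes a ubiquitin-editing enzyme that switches off signalling at the TNF receptor complex. It measured 4.13 and 4.08 FPKM in normal hIECs, 4.76 and 4.82 with PM10, 30.7 and 30.3 in inflamed hIECs, and 37.6 and 42.4 in inflamed hIECs with PM10. The groups were all separate, and the mean rose 7.43-fold without PM10 and 8.35-fold with it. The differences were 2.62 (SE 0.066, limma adjusted p = 1.28e-07) and 2.82 (limma adjusted p = 7.28e-08), which placed TNFAIP3 at rank 93 and rank 91 of the 14206 genes by size of increase. WAKMAR2 overlaps TNFAIP3 on the other strand, so part of these reads cannot be assigned.

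BIRC3 encodes a ubiquitin ligase bound to the TRAF adaptors, which serves cell survival at the TNF receptor and limits the alternative pathway. It was listed at 0 in all 4 libraries without cytokines, at 4.05 and 3.92 FPKM in inflamed hIECs and at 5.98 and 6.20 FPKM in inflamed hIECs with PM10. No fold change is given against groups at 0. BIRC3 reached the FPKM minimum only through the cytokine-treated groups and had to differ, so counts are also given without it. An unnamed gene, ENSG00000288528, overlaps it on the other strand.

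For cytokines without PM10, 8 of the 9 tested members rose and none fell, or 7 of 8 without BIRC3. Of all 14206 tested genes, 25.9% rose and 30.3% fell. With PM10 present in both groups, the count was again 8 of 9, or 7 of 8 without BIRC3, where 25.8% of all genes rose and 39.6% fell. These comparisons share no library. The median difference of the tested members was 1.84 without PM10 and 1.52 with it (1.76 and 1.497 without BIRC3), beside -0.028 and -0.11 over all genes tested. Libraries that do not overlap are common with 2 against 2. The treated libraries lay above the others for 7 of 8 members (BIRC3 left out) in each comparison, beside 36.4% of all tested genes without PM10 and 34.7% with it. The calls of the 7 members apart from BIRC3 held under every alternative setting tried with an adjusted p threshold alone.

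**Figure D3:**
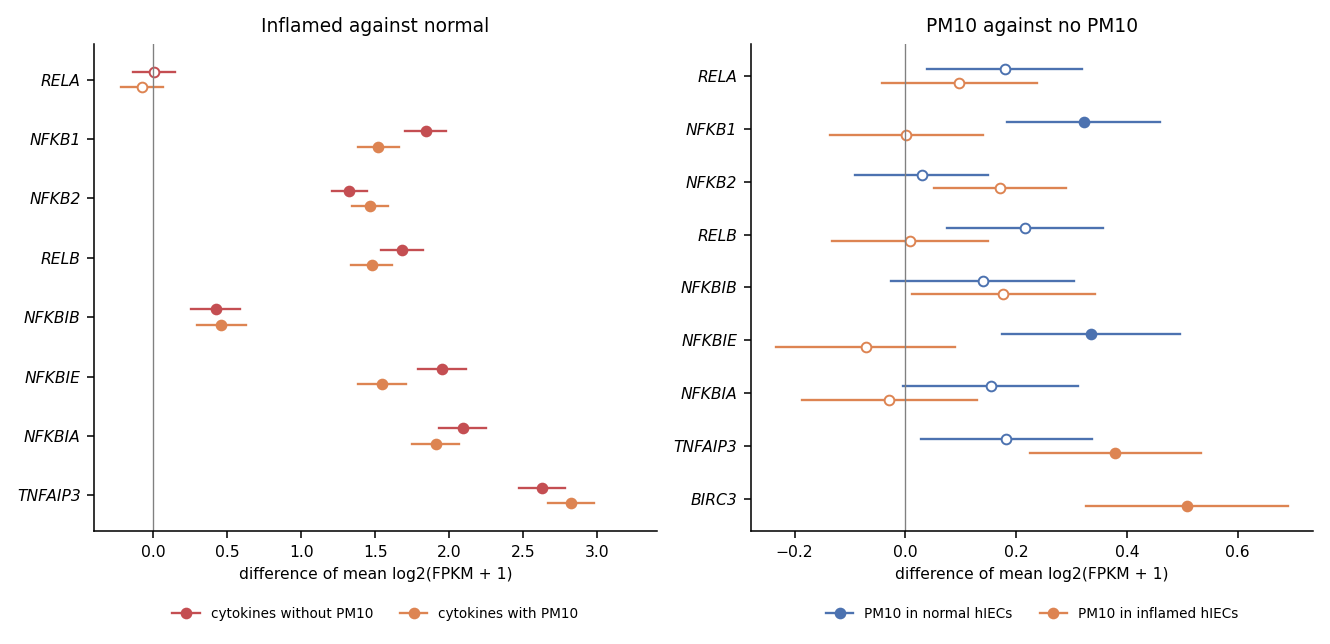
Differences of mean log2(FPKM + 1) (horizontal axes) with 95% intervals, for cytokines (left) and PM10 (right). Filled points passed limma at an adjusted p under 0.05 and open points did not. BIRC3 is drawn only for PM10 in inflamed hIECs, as it was at 0 in the groups without cytokines. For cytokines RELA alone is open, and for PM10 4 points are filled.

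PM10 passed the test in fewer members than the cytokines did. In normal hIECs, NFKB1 rose 1.30-fold (difference 0.32, SE 0.059, limma adjusted p = 0.0212) and NFKBIE rose 1.334-fold (difference 0.34, SE 0.069, limma adjusted p = 0.029). For both genes the 2 libraries with PM10 lay above the 2 without. That made 2 of 9 members higher and 0 lower, beside 5.51% of all genes higher and 3.72% lower. The direction of the whole set of calls depended on scaling, with 783 genes higher and 528 lower as deposited, 563 and 749 after median centring, and 1532 and 500 after scaling to a common sum without mitochondrial genes. Both calls were lost when only the 2 groups were fitted (limma adjusted p = 0.159 for NFKB1 and 0.154 for NFKBIE). They were also lost without normal replicate 2 (0.0616 and 0.0914), without either normal library with PM10 (at most 0.116 and 0.152) and without either inflamed library with PM10 (at most 0.0515 and 0.0575). Over all alternatives the adjusted p ran from 0.0128 to 0.159 for NFKB1 and from 0.0182 to 0.154 for NFKBIE.

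The other members did not pass the test for PM10 in normal hIECs. The difference of RELB was 0.22 (95% interval 0.075 to 0.36, limma adjusted p = 0.0653, and 0.0349 after scaling to a common sum without mitochondrial genes), that of TNFAIP3 was 0.18 (95% interval 0.027 to 0.34) and that of RELA was 0.18 (95% interval 0.038 to 0.32). NFKBIA differed by 0.15 (95% interval -0.0038 to 0.31) and NFKBIB by 0.14 (95% interval -0.026 to 0.30). NFKB2 differed by 0.030 (95% interval -0.090 to 0.15). The libraries with PM10 lay above those without for 7 of 8 members, BIRC3 left out and NFKB2 the exception, beside 37.3% of all tested genes. The median over the 9 members was 0.18, beside 0.059 over all genes. The summed mesenchymal markers were 5097 to 5112 FPKM in normal hIECs and 4424 to 4449 FPKM with PM10. That shift was not one of the whole list. Of its 11 genes 3 were lower, 1 was higher and 7 did not pass, beside 3.72% of all genes lower and 5.51% higher. The part of that shift was not tested.

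In inflamed hIECs TNFAIP3 and BIRC3 rose with PM10. TNFAIP3 went from a mean of 30.5 to one of 40.0 FPKM, 1.31-fold (difference 0.38, SE 0.066, limma adjusted p = 0.0112). BIRC3 went from a mean of 3.99 to one of 6.09 FPKM, 1.53-fold (difference 0.51, SE 0.078, limma adjusted p = 0.00709). The libraries with PM10 lay above those without for 4 of 8 members, BIRC3 left out, beside 31.9% of all tested genes. That made 2 of 9 members higher and 0 lower, or 1 of 8 without BIRC3, beside 6.22% of all genes higher and 9.02% lower. The numbers of genes were 883 higher and 1282 lower as deposited, 1136 and 1102 after quantile normalization, and 1139 and 1143 after scaling to a common sum without mitochondrial genes. The TNFAIP3 call was lost without inflamed replicate 1 (limma adjusted p = 0.0652), without inflamed replicate 2 (0.0729) and without replicate 2 of inflamed hIECs with PM10 (0.0681), and its adjusted p ran from 0.00826 to 0.0729 over the alternatives. The BIRC3 call was lost with a pseudocount of 0.1 (limma adjusted p = 0.0742), without inflamed replicate 2 (0.0543) and without replicate 2 of inflamed hIECs with PM10 (0.0561), within a range of 0.00287 to 0.0742.

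The subunits and IkB genes did not pass the test for PM10 in inflamed hIECs. NFKB2 came nearest, with a difference of 0.17 (95% interval 0.051 to 0.29, limma adjusted p = 0.0646). It passed under 5 of 19 alternatives, namely median centring (0.0443), a common sum without mitochondrial genes (0.0378), a fit of only the 2 groups (0.0454) and without either normal library (0.0357 and 0.0356), within a range up to 0.259. NFKBIB differed by 0.18 (95% interval 0.012 to 0.34) and RELA by 0.098 (95% interval -0.043 to 0.24). NFKB1 differed by 0.0018 (95% interval -0.14 to 0.14), RELB by 0.0091 (95% interval -0.13 to 0.15), NFKBIA by -0.029 (95% interval -0.19 to 0.13) and NFKBIE by -0.072 (95% interval -0.23 to 0.089). For these last 4 genes the libraries overlapped. The median over the 9 members was 0.098, beside -0.0061 over all genes. The summed mesenchymal markers were 5791 to 5864 FPKM in inflamed hIECs and 5116 to 5134 FPKM with PM10. Of the 11 genes 6 were lower, 4 did not pass and 1, LUM, was higher (difference 0.51). Over all genes 9.02% were lower and 6.22% higher. The part of these shifts was not tested.

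Whether the response to PM10 differed between inflamed and normal hIECs was tested as an interaction, the PM10 difference in inflamed minus that in normal hIECs. BIRC3 passed, at 0.51 (SE 0.11, limma adjusted p = 0.0399). As BIRC3 was at 0 in both normal groups, this value is the rise within inflamed hIECs. No response in normal hIECs could have been seen for it. It was lost under 11 of 17 alternatives, with adjusted p from 0.017 to 0.23. NFKBIE reached -0.41 (95% interval -0.63 to -0.18, limma adjusted p = 0.0532, from 0.0443 to 0.168 over the alternatives) and NFKB1 reached -0.32 (95% interval -0.52 to -0.13, limma adjusted p = 0.0667). TNFAIP3 reached 0.20 (95% interval -0.022 to 0.42, limma adjusted p = 0.257), so a difference between the states was not shown for it. Thus 1 of 9 members passed, or 0 of 8 without BIRC3, beside 2.11% of all genes with a positive and 4.48% with a negative interaction. The numbers of genes were 300 and 637 as deposited, 453 and 539 after median centring, and 425 and 487 after quantile normalization.

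The rest of the pathway was described from lists of genes, whose counts stand beside the shares over all genes given above. These were 25.9% higher and 30.3% lower for cytokines without PM10. With PM10 in both groups they were 25.8% and 39.6%. Among 12 receptors and adaptors between the TNF receptors and the kinases, 8 rose and 3 fell with cytokines without PM10 (median 0.42). With PM10 in both groups, cytokines raised 6 and lowered 3. CD40, a receptor of the TNF receptor family, had the largest change, from 12.3 to 35.5 FPKM (difference 1.46, SE 0.063, limma adjusted p = 1.89e-06). The adaptors TRAF3 (difference 1.02) and TRAF2 (difference 0.82), which pair with BIRC3 in receptor complexes, also rose. Of 10 genes for IkB kinases, the kinases that activate them and partners of both, 6 rose and 0 fell without PM10 (median 0.30). With PM10 in both groups, 5 rose and 2 fell. IKBKE, an IkB kinase-related enzyme, rose from 6.79 to 19.3 FPKM (difference 1.39), TAB2, a partner of the activating kinase, by 0.62 and that kinase, MAP3K7, by 0.43. For the effect of PM10, 0 of the 10 genes of the kinase list passed the test in either state. Of the 12 receptor and adaptor genes 2 were higher in normal hIECs, and 0 passed in inflamed hIECs. Over all genes 5.51% were higher and 3.72% lower with PM10 in normal hIECs, and 6.22% and 9.02% in inflamed hIECs. At such shares neither 0 of 10 nor 0 of 12 is a result about a list.

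Of 3 other IkB family genes, 1 rose and 1 fell with cytokines. NFKBIZ, a nuclear IkB protein that acts with NF-kB on chosen targets, rose from 4.61 to 13.6 FPKM (difference 1.38, SE 0.064, limma adjusted p = 2.66e-06). NFKBID, another nuclear IkB protein, fell by 0.28 (limma adjusted p = 0.0308, from 0.0201 to 0.157 over the alternatives, of which 5 lost the call). With PM10 in inflamed hIECs 2 of the 3 fell, beside 9.02% of all genes. BCL3, another nuclear IkB protein, went from a mean of 15.1 to one of 10.6 FPKM (difference -0.47, limma adjusted p = 0.0341). NFKBIZ fell to 8.64 and 9.18 FPKM from 13.8 and 13.5 FPKM (difference -0.56, limma adjusted p = 0.00223). Its PM10 difference in inflamed hIECs was below that in normal hIECs, where its libraries measured 4.77 and 4.44 FPKM without and 5.03 and 4.80 FPKM with PM10 (interaction -0.64, limma adjusted p = 0.0104).

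Of 12 other brakes, 5 rose with cytokines without PM10 and 6 with PM10 in both groups. None fell in either comparison (medians 0.20 and 0.28). TNIP3 reached the FPKM minimum only through the cytokine-treated libraries and had to differ. Without it 4 and 5 of 11 rose, beside 25.9% and 25.8% of all genes. TNIP3, which binds the TNFAIP3 protein, followed the pattern of BIRC3 under cytokines, listed at 0 in all 4 libraries without cytokines, at 3.401 and 3.409 FPKM in inflamed hIECs and at 3.12 and 2.70 FPKM with PM10. ZC3H12A, a ribonuclease that degrades cytokine transcripts, rose from 1.88 to 8.67 FPKM (difference 1.75). TNIP1, another partner of TNFAIP3, rose from 15.5 to 39.6 FPKM (difference 1.30, limma adjusted p = 1.89e-06). Like TNFAIP3 it rose further with PM10, to 57.4 and 58.6 FPKM (difference 0.54, limma adjusted p = 0.00162). CYLD, a deubiquitinase of the receptor complex, measured 7.60 and 8.24 FPKM in inflamed hIECs and 13.3 and 16.4 FPKM in inflamed hIECs with PM10 (difference 0.82, limma adjusted p = 0.0122). These are 2 of the 3 genes of the list that rose with PM10 in inflamed hIECs, where 0 of the list fell. Beside them stand 6.22% of all genes higher and 9.02% lower.

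**Figure D4:**
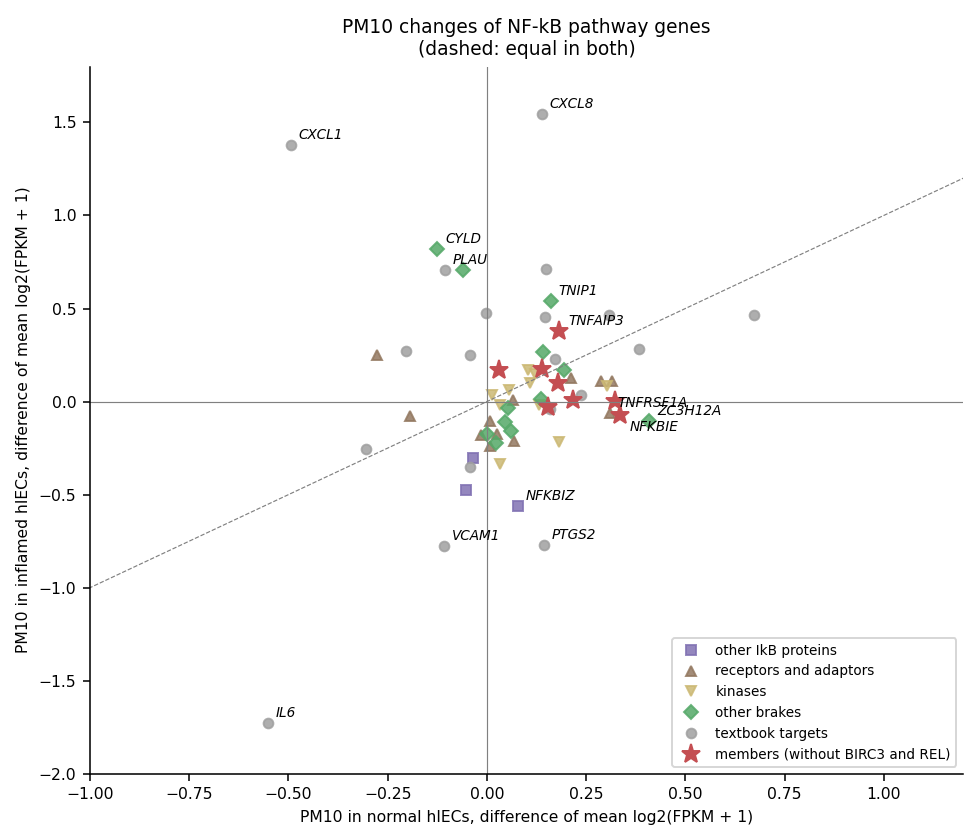
Difference of mean log2(FPKM + 1) for PM10 in normal hIECs (horizontal axis) and in inflamed hIECs (vertical axis) for 8 members (stars, BIRC3 and REL left out) and the genes of the pathway lists. Points on the dashed line changed equally in both. Each axis has its own control libraries. TNFAIP3 lies above the line and NFKBIE below it, while CXCL1, CXCL8 and IL6 lie far from both.

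The textbook targets of NF-kB served as a readout beside the members. Of 21 such genes, CCL20 and TNF were at 0 in every library and 19 were tested. CXCL1, CXCL2, CXCL8, IL6, BCL2A1 and TRAF1 reached the FPKM minimum only through the cytokine-treated libraries and had to differ. Of the other 13 genes, cytokines raised 12 without PM10 (median 1.35) and 13 with PM10 (median 1.26), beside 25.9% and 25.8% of all genes. The adhesion molecule ICAM1 rose from 2.17 and 2.04 FPKM to 77.3 and 78.2 FPKM (difference 4.66). The chemokine CCL2 went from 51.9 and 56.0 FPKM to 1090 and 1090 FPKM (difference 4.31). The cytokine IL6, 1 of the genes that had to differ, went from 0.796 and 1.11 FPKM to 26.4 and 21.3 FPKM. Its difference was 3.67, and 3.52 to 4.52 over the alternatives. The difference of TNFAIP3 was smaller than those of ICAM1 and CCL2. With PM10 in inflamed hIECs, 6 of the 13 rose and 3 fell, beside 6.22% and 9.02% of all genes. In normal hIECs 5 of the 13 rose and 0 fell, beside 5.51% and 3.72% of all genes.

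The genes whose pattern over the 8 libraries was most like that of the 3 members with the widest range were found from the root mean square distance of centred log2(FPKM + 1) values. For TNFAIP3 they were AIM2 (distance 0.057), L1CAM (0.0663) and IL4I1 (0.076). For BIRC3 they were L1CAM (0.105), AIM2 (0.105) and TNFAIP3 itself (0.114). For NFKBIA they were USP18 (0.0658), PDZRN4 (0.0799) and PSMB10 (0.0828). L1CAM, for example, measured 2.32 and 2.33 FPKM in normal hIECs, 18.7 and 19.2 in inflamed hIECs, and 23.1 and 23.7 in inflamed hIECs with PM10. In the libraries without cytokines AIM2 measured at most 0.355 FPKM and IL4I1 at most 0.530 FPKM. Like BIRC3, these genes reached the FPKM minimum only through the cytokine-treated libraries. The pseudocount of 1 shrinks the change of such low genes, so likeness on this scale is not likeness of fold change.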

How the data were processed

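RNA-seq of 8 libraries of 2D hIECs was used, 2 per group as the labels give them. RNA had an integrity number above 7.5. Poly-A libraries without strand information were read in pairs of 100 bases, trimmed with Cutadapt 3.7 and Sickle 1.33 (Phred 20, reads under 50 bases left out), aligned to GRCh38 with HISAT2 2.2.1 and quantified with StringTie 2.2.0. The annotation release is not given in the sources used here. The authors deposited FPKM for each gene in each library, and the values were not rescaled between libraries. All value columns were used. FPKM holds no counts, so no count test was run, and a value listed at 0 can lie under the reported minimum.

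Values were compared as log2(FPKM + 1), with a pseudocount of 1. limma 3.58.1 (R 4.3.3), with a variance trend, was fitted to all 4 groups at once over the 14206 genes that reached 1 FPKM in 2 or more libraries. P-values (two-sided) were adjusted by the Benjamini-Hochberg method over these genes within each of 5 comparisons, with a threshold of 0.05. Intervals are 95% intervals of the fit and were not adjusted. The members and the gene lists were chosen with earlier results of these data known. Named are all members, up to 3 genes per list with the largest called cytokine difference, list genes called in the interaction, and the 3 genes most like each of 3 members. LTBR was on the list of receptors and was not analysed here. Positions and overlaps come from GENCODE 44. Sequences come from RefSeq.

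Alternatives were pseudocounts of 0.1 and 0.5, filters (genes above 0, mean of at least 5 FPKM), median centring, quantile normalization, a common sum without mitochondrial genes, limma without trend or robust, a replicate block, a fit of the 2 groups compared, a 2-fold threshold, and leaving out each of the 8 libraries. For the list genes they were chosen after seeing the data. Tables and plots used Python 3.11.15, pandas 2.3.3, numpy 2.4.6 and matplotlib 3.10.9.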

Additional observations from a re-analysis of the deposited data

Results flagged for a closer look

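The interaction test of PM10 and cytokines passed in 1 of 9 tested members and in 11 genes of the pathway lists. Over all genes 2.11% had a positive and 4.48% a negative interaction. Positive and negative calls were 0 and 1 of 3 other IkB genes and 0 and 1 of 12 receptors and adaptors. They were 2 and 1 of 12 other brakes and 3 and 3 of 19 textbook targets. Without genes that reached the minimum only with cytokines, the targets gave 1 and 2 of 13. BIRC3, CXCL1, CXCL8 and IL6 reached 1 FPKM in 2 libraries only through the inflamed groups, and their values in normal hIECs with or without PM10 were at most 1.11 FPKM. With 2 libraries per group, single libraries were not tested for standing apart. The interaction is given as the PM10 difference in log2(FPKM + 1) in inflamed hIECs minus that in normal hIECs. BIRC3 had an interaction of 0.51 (limma adjusted p = 0.0399), which is the rise within inflamed hIECs because normal hIECs were at 0.

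Among the other brakes the interaction was 0.95 for CYLD (limma adjusted p = 0.0412) and 0.38 for TNIP1 (limma adjusted p = 0.0373), and it was -0.51 for ZC3H12A (limma adjusted p = 0.0299). Over the alternatives, 11 of 18 lost the CYLD call, 9 of 18 the TNIP1 call and 6 of 18 the ZC3H12A call. ZC3H12A measured 1.83 and 1.94 FPKM in normal hIECs, 2.81 and 2.84 FPKM with PM10, 8.20 and 9.14 FPKM in inflamed hIECs and 8.03 and 7.93 FPKM in inflamed hIECs with PM10. The interaction of NFKBIZ was -0.64 (limma adjusted p = 0.0104, lost in 3 of 18 alternatives). That of TNFRSF1A, the main TNF receptor, was -0.37 (limma adjusted p = 0.0298, lost in 7 of 18), with 49.4 and 48.6 FPKM in normal hIECs, 58.8 and 63.2 FPKM with PM10, 49.3 and 50.03 FPKM in inflamed hIECs and 48.3 and 46.8 FPKM in inflamed hIECs with PM10.

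Among the textbook targets the neutrophil chemokines CXCL1 and CXCL8 had interactions of 1.87 (limma adjusted p = 0.000434) and 1.41 (limma adjusted p = 0.00619). The CXCL8 call was lost in 1 of 17 alternatives, a pseudocount of 0.1 (limma adjusted p = 0.298). CXCL1 was listed at 0 in both normal libraries with PM10, and measured 5.56 and 5.57 FPKM in inflamed hIECs and 16.4 and 15.8 FPKM in inflamed hIECs with PM10. CXCL8 was listed at 0 in both normal libraries and at 0 and 0.213 FPKM in those with PM10. It measured 1.04 and 0.834 FPKM in inflamed hIECs and 4.83 and 4.46 FPKM in inflamed hIECs with PM10. PLAU, a plasminogen activator, had an interaction of 0.81 (limma adjusted p = 0.00531), with 8.31 and 7.86 FPKM in inflamed hIECs and 14.4 and 13.3 FPKM in inflamed hIECs with PM10. The interaction was negative for IL6, at -1.17 (limma adjusted p = 0.0158, lost in 6 of 18 alternatives), for the prostaglandin synthase PTGS2, at -0.91 (limma adjusted p = 0.00956), and for the adhesion molecule VCAM1, at -0.67 (limma adjusted p = 0.0268, lost in 6 of 18). In inflamed hIECs IL6 measured 26.4 and 21.3 FPKM, and 6.45 and 6.51 FPKM with PM10, PTGS2 measured 10.8 and 9.74 FPKM, and 5.53 and 5.65 FPKM with PM10, and VCAM1 measured 74.0 and 72.4 FPKM, and 41.5 and 43.2 FPKM with PM10. IL6 was also lower with PM10 in normal hIECs, at 0.444 and 0.219 FPKM against 0.796 and 1.11 FPKM. The ratio of its means was 0.349 there and 0.272 in inflamed hIECs. With a pseudocount of 0.1 the IL6 interaction was -0.54 (limma adjusted p = 0.439), so its size depends on the pseudocount.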

How the results depend on the processing

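Of 304 member values for cytokines under the alternatives, 301 kept their direction and their side of the threshold, and the other 3, all of RELA, changed sign around 0 (-0.012 with quantile normalization, -0.045 to 0.056 with a library left out). Of 787 values in all comparisons, 732 kept both, 29 lost a call, 11 gained one and 15 changed sign. Sign changes were also seen for NFKB2 with PM10 in normal hIECs (-0.025 with median centring, -0.033 with quantile normalization, -0.0016 to 0.061 with a library left out), for NFKB1 with PM10 in inflamed hIECs (-0.00600 and -0.00611 with these scalings, -0.0086 to 0.012 with a library left out), and, with a library left out, for RELB (-0.040 to 0.058) and NFKBIA (-0.12 to 0.064) with PM10 in inflamed hIECs and for the NFKBIB interaction (-0.036 to 0.11). The cause was not tested.

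Member counts for PM10 in normal hIECs went from 2 to 0 with the 2-fold threshold or with only the 2 groups fitted and to 3, with RELB added, after scaling to a common sum without mitochondrial genes, and were 0 to 2 with a library left out. For PM10 in inflamed hIECs the count went from 2 to 1 with a pseudocount of 0.1 or a mean of at least 5 FPKM, which leaves fewer genes to test, to 0 with the 2-fold threshold, and to 3, with NFKB2 added, after median centring or the common sum or with only the 2 groups fitted, and was 0 to 3 with a library left out. For the interaction it went from 1 to 0 with all genes above 0 or the 2-fold threshold and to 2 after scaling to a common sum without mitochondrial genes, and was 0 to 1 with a library left out. It stayed at 1 with pseudocounts of 0.1 and 0.5 and a mean of at least 5 FPKM, but there BIRC3 was lost or not tested and NFKBIE passed (limma adjusted p = 0.0458, 0.0493 and 0.0445). The stricter threshold cut the genes called to 49 of 1311 for PM10 in normal hIECs, 1304 of 7988 for cytokines without PM10, 1835 of 9286 with PM10, 95 of 2165 for PM10 in inflamed hIECs and 125 of 937 for the interaction. For PM10 in normal hIECs the number was 2032 after scaling to a common sum without mitochondrial genes and 23 with only the 2 groups fitted. A mean of at least 5 FPKM gave 4931 genes for cytokines without PM10 and 5551 with it. With a library left out the numbers ran from 194 to 2627 and from 675 to 2992 for PM10 in normal and inflamed hIECs, and from 263 to 1266 for the interaction. A group left with 1 library is assumed to vary like the others.

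The labels do not say that replicate numbers pair the samples. Deviations of same-numbered libraries correlated at r = -0.0015 to 0.079 over all tested genes. A low correlation over so many genes cannot exclude a shared culture or batch, so pairing stays unknown. With a replicate block 8 members passed for cytokines without and with PM10, 2 for PM10 in normal hIECs, 2 in inflamed hIECs and 1 for the interaction, but the interaction of BIRC3 moved to a limma adjusted p of 0.0619 and that of NFKBIE to 0.0443.

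FPKM gives no depth, and 2 libraries per group limit the precision. Small PM10 differences of the members lie within their intervals, and low genes such as REL lie near the lowest value a library can hold.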
